A study of Sus scrofa with 22 samples.

Results

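Cloned pig fetuses classed as abnormal were set against naturally fertilized (NF) fetuses at day 30 of gestation, across all genes that could be named. The comparison rests on 4 of the 22 samples of the series, 2 libraries labelled day30-abnormal and 2 labelled day30-NF, chosen by their titles. The pigs (Sus scrofa) are described by stage, tissue ("body tissue") and sex. The abnormal fetuses were made by somatic cell nuclear transfer and are labelled male, as are 3 day 30 clones labelled normal. Of the NF fetuses, made by natural fertilization, NF 1 is labelled male and NF 2 female. All fetus libraries were made from total RNA. The labels do not say what made a fetus abnormal, which donor cells were used, which part of the body was taken, or whether each library is a separate animal. The p-values therefore measure a spread between libraries, which may be partly technical. It was estimated over all 14 fetus libraries of day 30 and day 35, not over the 4 compared ones alone.

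In nuclear transfer, the nucleus of a body cell is placed in an egg without its own nucleus and has to take up embryonic gene activity. Many cloned embryos stop growing or form defective organs and placentas. Around the stage sampled here, a normal pig embryo is completing organ formation: muscle and cartilage are differentiating, and blood formation is moving from the yolk sac to the liver.

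The abnormal libraries were the shallower ones, with 2328046 and 2413883 counts in named genes, against 7645916 and 6740584 in the NF libraries. Abnormal 1 and abnormal 2 had a Spearman correlation of 0.960 over genes and NF 1 and NF 2 one of 0.962, while abnormal and NF libraries correlated at 0.844 to 0.865. NF 2 was closer to a day 35 NF library, at 0.990, than to NF 1. The library day 35 abnormal 2, which enters the fit through its estimate of the spread, stood apart from the other abnormal ones: with 406200 counts, it correlated at 0.889 to 0.908 with the 4 NF libraries of both days and at 0.789 to 0.812 with the other 3 abnormal libraries. It had no count of the embryonic globins HBE1 and HBZ, where day 35 abnormal 1 had 1340 and 872 CPM, and 135 CPM of the cartilage gene ACAN, where day 35 abnormal 1 had 3.07 CPM. The sex labels of the NF pair went against their RNA. Summed over 4 of the 7 Y-linked genes measured, the level was 1220 and 620 CPM (counts scaled by library size) in abnormal 1 and abnormal 2, against 0.273 CPM in NF 1, labelled male, and 1070 CPM in NF 2, labelled female. The 4 genes were chosen after their values were seen: of the other 3, LOC100624648 had 407 and 391 CPM in the abnormal fetuses, against 259 and 330 CPM in the NF fetuses, and so does not tell the sexes apart. Values without the day 30 libraries are given below for most of the lists and genes whose calls they change. Those without day 35 abnormal 2 are given for some lists only. Leaving it out also raised the counts of called HOX, cytosolic ribosomal, WNT, TGF-beta and inflammatory genes, and a heart gene was then called lower.

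Markers of the body's main tissues were checked against the tissue label. Muscle, neural, cartilage, fibroblast and endothelial markers were present in both groups, and the hormone receptors PGR and ESR1 of the maternal endometrium stayed at or below 1.75 CPM in all 4 libraries, while its marker ACP5 had 8.3 and 36.3 CPM in the abnormal fetuses, against 25.9 and 10.2 CPM in the NF fetuses. Of 10 tested endometrial genes, 2 were lower and none higher in the abnormal fetuses (1, 1, 2 and 1 lower without abnormal 1, abnormal 2, NF 1 and NF 2). Heart markers NKX2-5 and MYL7 together with NPPA summed to 91.8 and 154 CPM in the abnormal fetuses, against 0.682 and 0.609 CPM in the NF fetuses. Cartilage markers COL9A1 and ACAN summed to 61.6 and 56 CPM in the abnormal fetuses, against 920 and 729 CPM in the NF fetuses. Liver and yolk sac markers set the abnormal libraries apart from each other, with a sum of 21.9 CPM in abnormal 1 and 1540 CPM in abnormal 2, against 28.3 and 22.7 CPM in the NF fetuses. In these bulk samples, fewer cells of a type and less RNA per cell cannot be told apart, and a difference in the tissue taken cannot be told apart from a difference between the fetuses.

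**Figure D1:**
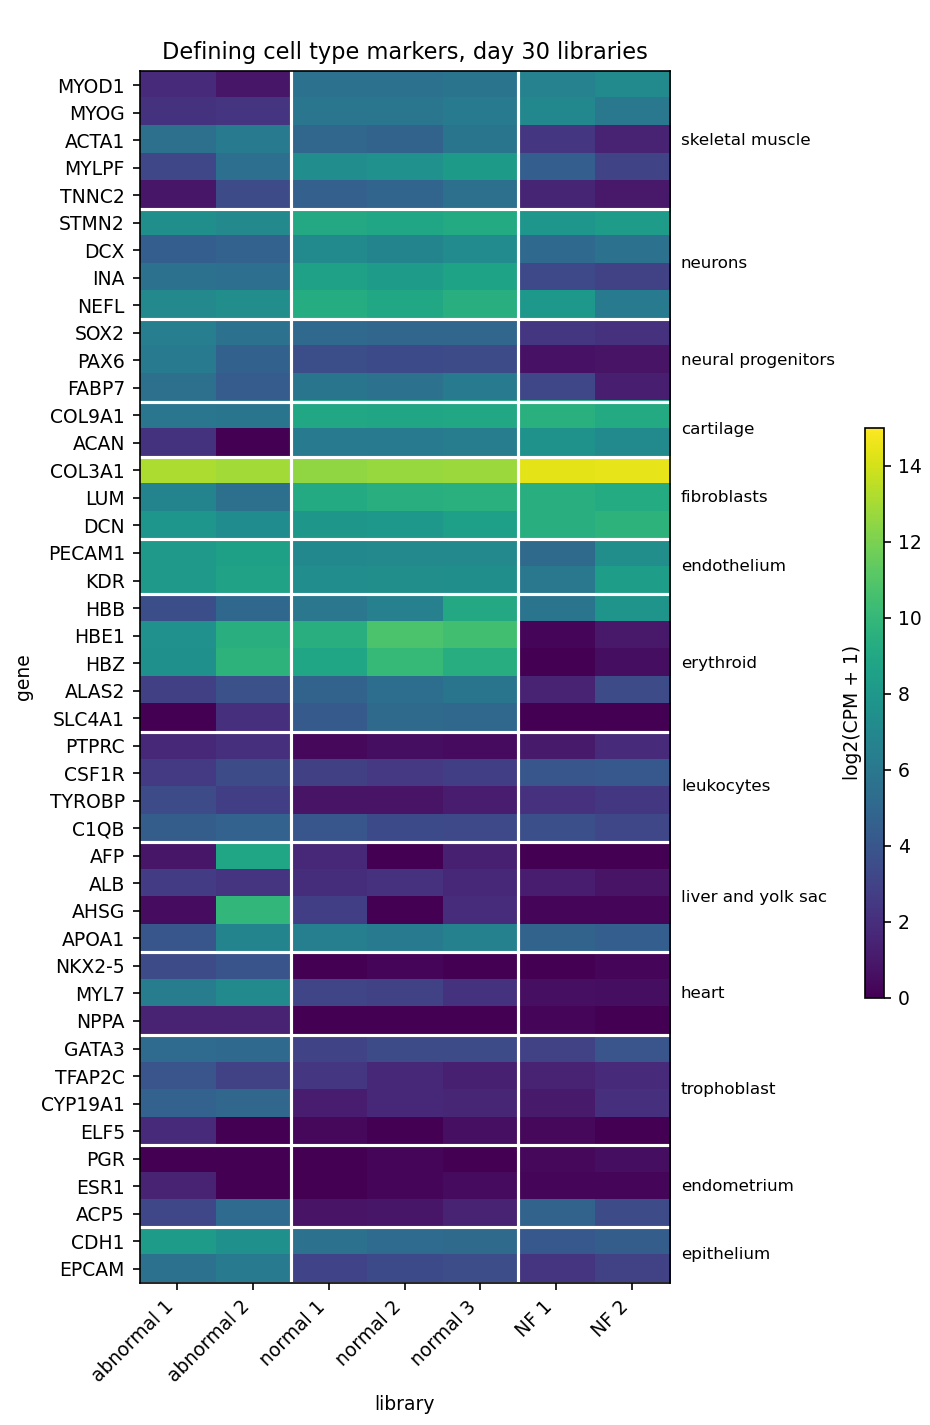
Expression of defining cell type markers (rows, grouped by cell type) in the 7 day 30 libraries (columns: abnormal, normal clones, NF), as log2(CPM + 1). Heart and epithelial markers are brighter in the abnormal than in the NF columns, cartilage markers, MYOD1 and MYOG are darker, and AFP and AHSG stand out in abnormal 2.

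Many genes differed between the groups, in both directions. Of 9911 tested genes, 2974 were called (30.0%, edgeR quasi-likelihood test, Benjamini-Hochberg adjusted p under 0.05), 1538 higher (15.5%) and 1436 lower (14.5%) in the abnormal fetuses. Of the called genes, 1142 differed by more than 4-fold, 791 higher and 351 lower. The groups did not overlap in 69.1% of all tested genes. The call held without each of the 4 libraries in turn for 690 genes, 385 higher and 305 lower. The count of calls was 1288 without abnormal 1, 1112 without abnormal 2, 2217 without NF 1 and 1238 without NF 2, and 4651 without day 35 abnormal 2, which include all 2974. The balance of directions depended on the scaling: on log2(TPM + 1), 937 genes were higher and 1893 lower (33.1% of calls higher, against 51.7%), and the median log2 difference of all genes was -0.23 there, against -0.02. Below, a log2 difference is abnormal minus NF with its standard error, and a call is said to hold when it stayed without each of the 4 libraries. The counts of called list members stand beside these shares of all tested genes, 30.0% in either direction, 15.5% higher and 14.5% lower.

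**Figure D2:**
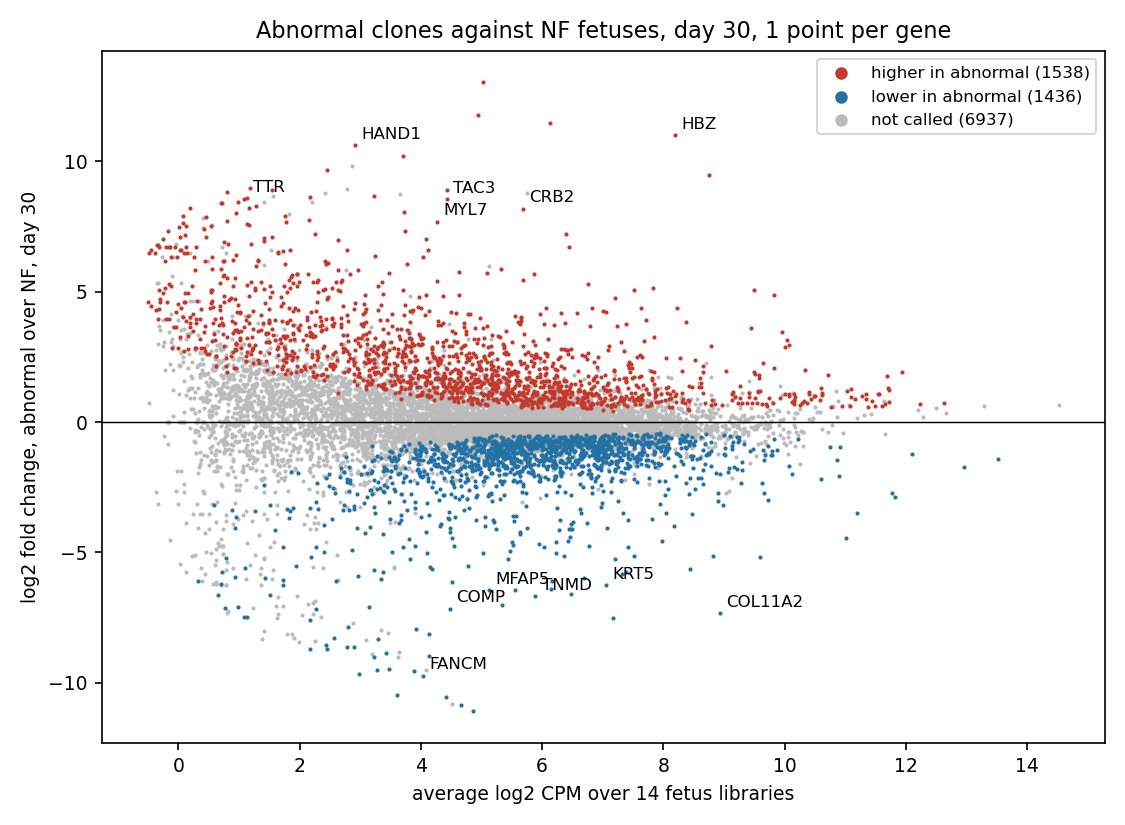
Log2 difference between abnormal and NF fetuses at day 30 (y axis) against average log2 CPM (x axis), 1 point per tested gene, with 1538 genes called higher and 1436 called lower. HAND1, MYL7 and TAC3 are among the largest differences above 0, and COL11A2, KRT5 and TNMD among those below it.

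The largest differences that held included genes detected in only 1 of the compared groups. HAND1, a transcription factor of heart, lateral mesoderm and trophoblast (chromosome 16, 68679977 to 68683346, Sscrofa11.1), had 49.4 and 37.2 CPM in the abnormal fetuses and no count in the NF fetuses, which makes it at least 200-fold higher by a floor of 3 counts over the group. LHX1, a regulator of the early kidney and head, had 15.7 and 10.3 CPM, and ONECUT1, a liver and pancreas regulator, 11.4 and 9.84 CPM in the abnormal fetuses, with no count in either NF library (at least 60.2-fold and 49.1-fold higher). TTR, the carrier of thyroid hormone and retinol made by yolk sac and liver, had 17 and 3.85 CPM in the abnormal fetuses and none in the NF fetuses (at least 48.3-fold higher). The normal clones had 26.3 to 34.1 CPM of LHX1 and 4.43 to 7.24 CPM of ONECUT1, so these were not particular to the abnormal fetuses. They had 0 to 0.457 CPM of HAND1 and no count of TTR. A gene's value sums the transcript records that could be matched to it, 1 to 5 for the genes given such a bound at day 30, and 38.4% of all records were matched. A 0 and its bound therefore hold for the matched records, and transcripts in other records were not counted.

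TAC3, the precursor of neurokinin B, had 111 and 182 CPM in the abnormal fetuses, against 0.409 and 0.305 CPM in the NF fetuses (log2 difference 8.56 ± 0.89, adjusted p = 0.000506). CRB2, an apical polarity protein of early epithelia, had 287 and 186 CPM in the abnormal fetuses, against 1.5 and 0 CPM in the NF fetuses (8.19 ± 1.01, adjusted p = 0.00108). SYCP2, a protein of the meiotic synaptonemal complex, had 21.8 and 18.4 CPM in the abnormal fetuses, against 0.136 and 0 CPM (7.68 ± 1.2, adjusted p = 0.00212). The normal clones had 0.482 to 2.58 CPM of TAC3 and 0 to 0.457 CPM of SYCP2, far below the abnormal values. For CRB2 they stood between the groups, at 34.1 to 45.3 CPM (log2 difference of normal clones minus NF 5.58 ± 0.94). The other genes among the 15 largest higher ones were RNPC3, HBZ, ADAMTS13, RASGRP2, MYL7 and 3 genes known by locus numbers.

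Among the 15 largest lower genes, FANCM, a DNA translocase of the Fanconi anaemia repair pathway with 1 matched record of 2 listed, had no count in either abnormal fetus, against 22.8 and 23.2 CPM in the NF fetuses (at least 35.4-fold lower). WDR12, a ribosome assembly factor with 2 matched records, likewise had none in the abnormal fetuses, against 14.2 and 26.7 CPM in the NF fetuses (at least 31.5-fold lower). AVPR1A, the vascular vasopressin receptor, had none, against 11.7 and 16.2 CPM (at least 21.5-fold lower). FANCM and WDR12 had counts in all 3 normal clones, at 29 to 35 CPM and 9.23 to 17.8 CPM, and so had AVPR1A, at 3.2 to 4.06 CPM. KRT5, the keratin of basal skin cells, had 5.24 and 1.28 CPM in the abnormal fetuses, against 210 and 294 CPM in the NF fetuses (-6.27 ± 1.02, adjusted p = 0.00259). MFAP5, a microfibril protein, had 0.874 and 0.428 CPM, against 46.7 and 72 CPM (-6.46 ± 0.58, adjusted p = 0.000152). In the normal clones KRT5 had 14 to 35.6 CPM and MFAP5 1.07 to 1.69 CPM, both below NF. RNPC3, a splicing factor with 5 matched records of 6 listed, was at 100 and 91.5 CPM in the abnormal fetuses, 0, 51.3 and 39.7 CPM in the normal clones and 0 in both NF fetuses (at least 444-fold higher in the abnormal than in the NF fetuses). FANCM, WDR12, AVPR1A and RNPC3 have no record matched by version, and neither do LHX1 and ONECUT1 above. Their pattern therefore has no second value under that matching.

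Glycolytic genes were higher in the abnormal fetuses almost as a whole. Of 15 tested members, 14 were higher and none lower, against 15.5% of all tested genes higher, with a median log2 difference of 2.26 (2.02 on the TPM scale). PKM, which makes pyruvate, had 7030 and 7630 CPM in the abnormal fetuses, against 2130 and 2130 CPM in the NF fetuses (1.78 ± 0.33, adjusted p = 0.00444). GAPDH had 9830 and 9100 CPM, against 2890 and 2040 CPM (1.94 ± 0.35, adjusted p = 0.00416). SLC16A3, the exporter of lactate (chromosome 12, 796882 to 807480), had 645 and 1120 CPM in the abnormal fetuses, against 19.6 and 30.6 CPM in the NF fetuses (5.13 ± 1.08, adjusted p = 0.00747). All 3 calls held. LDHA, which makes lactate, had 2690 and 3070 CPM in the abnormal fetuses, against 337 and 307 CPM in the NF fetuses (3.16 ± 0.65, adjusted p = 0.00687, and 0.0527 without NF 2). PFKM, the muscle phosphofructokinase, was the member not called, at 0.60 ± 0.35. The count of higher members was 10, 6, 12 and 3 without abnormal 1, abnormal 2, NF 1 and NF 2, and the median stayed between 2.03 and 2.37.

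Genes of hypoxia signalling moved in both directions. Of 19 tested, 7 were higher and 2 lower (median 1.38, 47.4% called, against 30.0% of all tested genes). BNIP3, a mitophagy receptor (chromosome 14, 140362123 to 140371951), had 2310 and 2620 CPM in the abnormal fetuses, against 99.3 and 69.5 CPM in the NF fetuses (4.87 ± 1.24, adjusted p = 0.0155). VEGFA, the growth factor for blood vessels, had 434 and 545 CPM, against 59.5 and 140 CPM (2.30 ± 0.58, adjusted p = 0.0154). Both calls depended on single libraries, with an adjusted p for BNIP3 of 0.0526, 0.0661 and 0.101 without abnormal 2, NF 1 and NF 2, and for VEGFA of 0.0729 and 0.0907 without abnormal 2 and NF 1. LOX, the collagen cross-linking enzyme, was lower, at 25.8 and 34.6 CPM in the abnormal fetuses, against 501 and 307 CPM in the NF fetuses (-3.74 ± 0.60, adjusted p = 0.00237). ADM, the vessel-dilating peptide adrenomedullin, had 92.6 and 62 CPM in the abnormal fetuses, against 57.9 and 50.3 CPM (0.51 ± 0.52, not called). Leaving out a library gave 4, 0, 1 and 1 higher members without abnormal 1, abnormal 2, NF 1 and NF 2, and 13 higher and 4 lower without day 35 abnormal 2.

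Heart genes formed another block that was higher in the abnormal fetuses. Of 18 tested, 12 were higher and none lower, with a median of 3.26. The cardiac transcription factor GATA4 (chromosome 14, 14858470 to 14938156) had 67.7 and 105 CPM in the abnormal fetuses, 0 to 0.152 CPM in the normal clones, and 0.273 and 0.762 CPM in the NF fetuses (7.33 ± 0.99, adjusted p = 0.00125). NKX2-5, another cardiac factor, had 9.61 and 14.1 CPM in the abnormal fetuses, against 0 and 0.152 CPM in the NF fetuses (6.90 ± 1.27, adjusted p = 0.00526). MYL7, the atrial myosin light chain, had 80.4 and 138 CPM, against 0.546 and 0.457 CPM (7.69 ± 0.60, adjusted p = 6.13e-05). TNNI3, cardiac troponin I, had 26.2 and 47.5 CPM, against 2.59 and 1.07 CPM (4.30 ± 0.67, adjusted p = 0.00211). All 4 calls held. NPPA, the atrial peptide, was too low to be tested. The cardiac actin ACTC1, which embryonic skeletal muscle also makes, had 154 and 467 CPM in the abnormal fetuses, against 1320 and 558 CPM in the NF fetuses (-1.60 ± 1.14, not called). The count of higher members was 11, 8, 9 and 10 without abnormal 1, abnormal 2, NF 1 and NF 2.

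Epithelial genes had the highest median of the lists, 3.98, with 12 of 14 tested members higher and 1 lower. KRT8, a keratin of simple epithelia, had 2200 and 1680 CPM in the abnormal fetuses, against 61.1 and 54.3 CPM in the NF fetuses (5.07 ± 1.04, adjusted p = 0.00688, and 0.0551 without NF 2). EPCAM, an epithelial adhesion molecule, had 48.5 and 68.8 CPM, against 3.96 and 6.4 CPM (3.50 ± 0.75, adjusted p = 0.00805, holding). CLDN7, a tight junction protein, had 49.4 and 41.5 CPM, against 1.23 and 1.98 CPM (4.81 ± 1.00, adjusted p = 0.00709, holding). The lower member was KRT5, described above, so KRT8 and KRT5 moved in opposite directions. Leaving out a library gave 8, 8, 6 and 5 higher members without abnormal 1, abnormal 2, NF 1 and NF 2.

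Kidney and gonad regulators were higher in 6 of 9 tested members (median 2.68). Summed over the list, the abnormal fetuses had 221 and 265 CPM and the normal clones 217 to 241 CPM. The NF fetuses had 47.4 and 48.5 CPM. For abnormal minus normal clones the median was -0.06, with 3 members called higher and none lower. WT1, a factor of both organs, had 62.5 and 102 CPM in the abnormal fetuses, against 3.55 and 8.23 CPM in the NF fetuses (3.80 ± 0.81, adjusted p = 0.00796). PAX2, a kidney regulator, had 6.55 and 21 CPM, against 0.955 and 1.07 CPM (3.73 ± 0.66, adjusted p = 0.00444). Both calls held, and the count was 3, 3, 4 and 4 without abnormal 1, abnormal 2, NF 1 and NF 2.

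Of 15 trophoblast-associated genes, 7 were higher and 1 lower (median 2.01, 53.3% called, against 30.0% of all tested genes). CYP19A1, the oestrogen-making aromatase, had 25.3 and 29.5 CPM in the abnormal fetuses, against 1.09 and 3.2 CPM in the NF fetuses (3.67 ± 0.90, adjusted p = 0.0134, and 0.0554 and 0.0722 without abnormal 2 and NF 1). TEAD4 was the lower member, at 17.9 and 18.8 CPM in the abnormal fetuses, against 64.3 and 82.6 CPM (-2.0 ± 0.41, adjusted p = 0.00713, holding). ELF5, a factor specific to trophoblast, had 2.62 and 0 CPM, against 0.273 and 0 CPM (2.98 ± 1.74, not called). The trophoblast markers GATA3, TFAP2C, CYP19A1 and ELF5 summed to 78.6 and 69.3 CPM in the abnormal fetuses, against 9.54 and 20.4 CPM in the NF fetuses. Their part in the epithelial result was not tested. The count of higher members was 3, 2, 1 and 3 without abnormal 1, abnormal 2, NF 1 and NF 2.

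**Figure D3:**
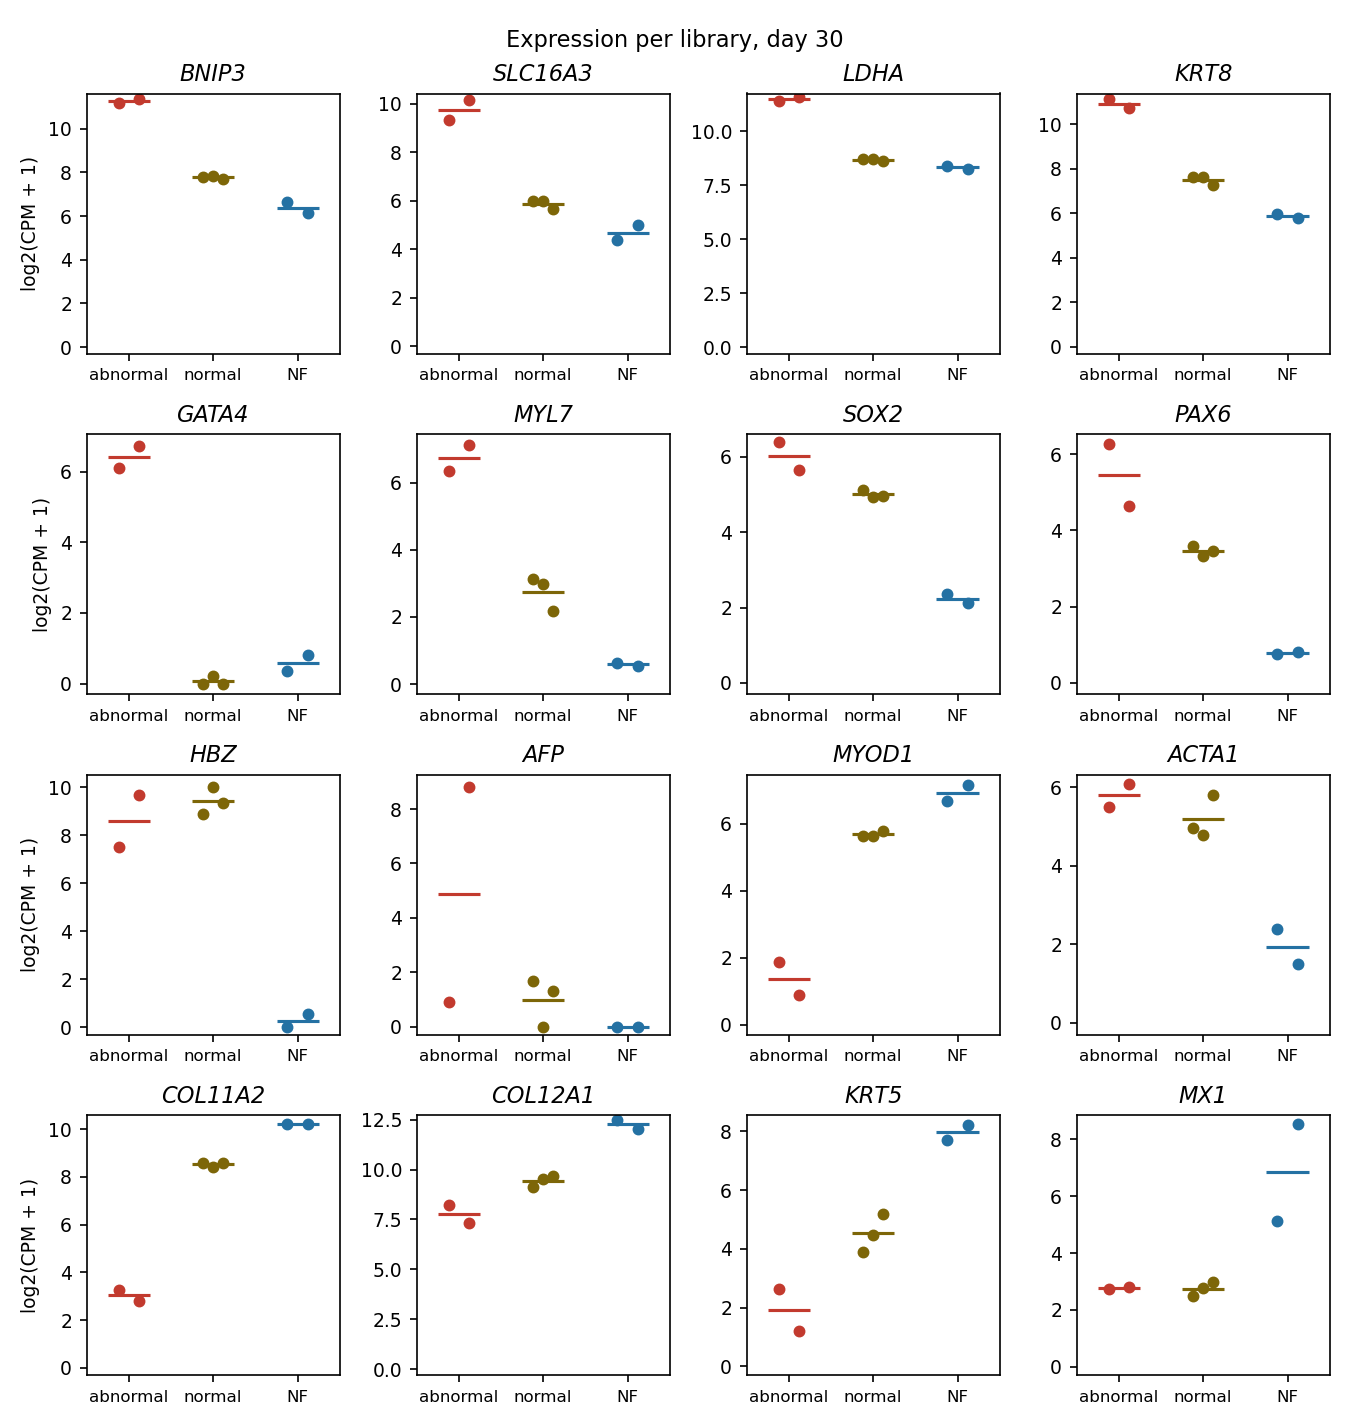
Expression of 16 genes as log2(CPM + 1) (y axes) in the abnormal, normal clone and NF libraries of day 30 (1 point per library, bars at the mean). BNIP3, SLC16A3, LDHA and KRT8 stand high in the abnormal fetuses alone, HBZ and ACTA1 in both kinds of clone, and AFP in 1 abnormal library.

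Embryonic haemoglobin separated clones of both kinds from the NF fetuses. Of 17 erythroid genes, 11 were higher and none lower in the abnormal fetuses (median 3.06, but 6 higher and a median of 0.96 on the TPM scale). HBZ, the embryonic alpha-like globin, had 182 and 815 CPM in the abnormal fetuses, 467 to 1040 CPM in the normal clones, and 0 and 0.457 CPM in the NF fetuses (11.00 ± 2.09, adjusted p = 0.00496, holding). HBE1, the embryonic beta-like globin, had 193 and 669 CPM in the abnormal fetuses, 705 to 1690 CPM in the normal clones, and 0.136 and 1.07 CPM in the NF fetuses (9.47 ± 2.01, adjusted p = 0.00773, and 0.0509 without NF 2). HBB had 11.4 and 31.2 CPM in the abnormal fetuses, against 54.4 and 214 CPM in the NF fetuses (-2.65 ± 1.08, not called). SLC4A1, the red cell anion exchanger, had 0 and 2.99 CPM in the abnormal fetuses, 18.1 to 35.5 CPM in the normal clones, and no count in the NF fetuses. Its call (adjusted p = 0.0298) rested on abnormal 2, without which its difference was 0. Leaving out a library gave 10, 5, 6 and 5 higher members without abnormal 1, abnormal 2, NF 1 and NF 2.

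Liver and yolk sac products were called higher in 8 of 16 tested members (median 3.68), but the library abnormal 2 decided most of it. AFP, the fetal serum protein alpha-fetoprotein, had 0.874 CPM in abnormal 1 and 455 CPM in abnormal 2, against no count in the NF fetuses. AHSG, fetuin A, had 0.437 and 975 CPM, against 0.136 and 0.152 CPM. The 2 abnormal fetuses thus differed from each other more than abnormal 1 did from the NF fetuses. Without abnormal 2 the adjusted p was 0.215 for AFP and 0.753 for AHSG, and 2 members were called, with a median of 1.48. The count was 9, 4 and 2 without abnormal 1, NF 1 and NF 2. ALB had 5.24 and 3.85 CPM in the abnormal fetuses, against 1.23 and 0.762 CPM (2.15 ± 0.93, not called).

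Endothelial genes were higher in 7 of 14 tested members and lower in 1 (median 1.55). The called share was 57.1%, against 30.0% of all tested genes. The defining marker KDR had 266 and 395 CPM in the abnormal fetuses, against 62 and 343 CPM in the NF fetuses (0.71 ± 0.7, not called). Its level in abnormal 1 was below that in NF 2. VWF, the clotting carrier made by vessel walls (chromosome 5, 64516627 to 64655938), had 111 and 133 CPM in the abnormal fetuses, against 13.9 and 9.45 CPM in the NF fetuses (3.38 ± 0.21, adjusted p = 2.63e-05). TEK, the angiopoietin receptor, had 45.9 and 55.6 CPM, against 8.05 and 9.6 CPM (2.52 ± 0.39, adjusted p = 0.00196). NOS3, endothelial nitric oxide synthase, had 21.8 and 38.1 CPM, against 2.32 and 6.1 CPM (2.83 ± 0.45, adjusted p = 0.00237). ENG, the co-receptor endoglin (chromosome 1, 268309379 to 268343861), moved the other way, with 121 and 105 CPM in the abnormal fetuses, against 662 and 866 CPM in the NF fetuses (-2.76 ± 0.22, adjusted p = 6.13e-05). All 4 calls held. The NF libraries differed in this list, with PECAM1 at 265 and 366 CPM in the abnormal fetuses, against 35.8 CPM in NF 1 and 166 CPM in NF 2 (1.65 ± 0.51, adjusted p = 0.0326, and 0.067, 0.147 and 0.0505 without abnormal 1, abnormal 2 and NF 1). The count of higher members was 6, 4, 5 and 9 without abnormal 1, abnormal 2, NF 1 and NF 2.

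Of 21 leukocyte genes, 6 were higher and none lower (median 1.03, 0.37 on the TPM scale). The called share was 28.6%, against 30.0% of all tested genes. LAPTM5, a lysosomal protein of blood cells, had 138 and 189 CPM in the abnormal fetuses, against 17.2 and 36.4 CPM in the NF fetuses (2.61 ± 0.36, adjusted p = 0.00126, holding). PTPRC, which marks all white cells, had 2.18 and 2.99 CPM, against 1.09 and 2.44 CPM (0.55 ± 0.71, not called). The leukocyte marker CSF1R leaned the other way, at 4.81 and 9.84 CPM, against 15 and 16.2 CPM (-1.09 ± 0.44, not called). The markers TYROBP (1.03 ± 0.49) and C1QB (1.22 ± 0.49) were not called either. The count was 5, 1, 3 and 2 without abnormal 1, abnormal 2, NF 1 and NF 2.

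Neural progenitor genes were more often higher than lower. Of 14 tested, 7 were higher and 1 lower (median 2.72). SOX2, a factor of neural stem cells, had 83 and 49.2 CPM in the abnormal fetuses, 29.4 to 33.5 CPM in the normal clones, and 4.09 and 3.35 CPM in the NF fetuses (4.14 ± 0.59, adjusted p = 0.00144). PAX6, a factor of the eye and forebrain, had 75.6 and 23.9 CPM in the abnormal fetuses, against 0.682 and 0.762 CPM in the NF fetuses (6.06 ± 0.78, adjusted p = 0.000994). SLC1A3, a glutamate transporter of glia, was lower, at 0.874 and 1.28 CPM, against 26.1 and 15.1 CPM (-4.22 ± 0.56, adjusted p = 0.00109). All 3 calls held. Leaving out a library gave 4, 7, 6 and 4 higher members without abnormal 1, abnormal 2, NF 1 and NF 2.

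Among 16 neuron genes, 5 were higher and none lower (median 0.80). Called shares were 31.2% of neuron and 37.5% of neural crest genes, against 30.0% of all tested genes. ELAVL3, a neuronal RNA-binding protein, had 36.3 and 16.2 CPM in the abnormal fetuses, 60 to 75.5 CPM in the normal clones, and 2.73 and 1.07 CPM in the NF fetuses (3.75 ± 0.58, adjusted p = 0.00202, holding). ISL1, a motor and sensory neuron factor, had 29.3 and 44.5 CPM in the abnormal fetuses, against 4.09 and 4.73 CPM in the NF fetuses (3.06 ± 0.39, adjusted p = 0.000994, holding). STMN2, a protein of growing axons, had 180 and 132 CPM, against 234 and 318 CPM (-0.82 ± 0.36, not called). The count was 3, 3, 5 and 3 without abnormal 1, abnormal 2, NF 1 and NF 2, and 6 higher and 2 lower without day 35 abnormal 2. SOX10, the neural crest and glial factor, was lower, at 0 and 1.71 CPM in the abnormal fetuses, against 12.7 and 8.54 CPM in the NF fetuses (-3.58 ± 0.65, adjusted p = 0.00497, holding). Of 8 neural crest genes, 1 was higher and 2 lower (2, 2, 3 and 1 called without abnormal 1, abnormal 2, NF 1 and NF 2).

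Skeletal muscle genes were called in both directions, contractile genes included. MYOD1, the factor that commits cells to muscle, had 2.62 and 0.855 CPM in the abnormal fetuses, 48.2 to 53.3 CPM in the normal clones, and 101 and 141 CPM in the NF fetuses (-6.10 ± 1.00, adjusted p = 0.00259). MYOG, which drives muscle differentiation, had 3.5 and 3.85 CPM in the abnormal fetuses, against 126 and 62.4 CPM in the NF fetuses (-4.67 ± 0.50, adjusted p = 0.000406). MYMK, the fusion protein myomaker, had 1.31 and 1.28 CPM, against 39.4 and 24.7 CPM (-4.60 ± 0.87, adjusted p = 0.00483). Among the contractile genes, ACTA1, skeletal alpha-actin, had 44.6 and 67.6 CPM in the abnormal fetuses, against 4.23 and 1.83 CPM in the NF fetuses (4.18 ± 0.64, adjusted p = 0.00191). MYH7, the slow and cardiac myosin, had 66 and 265 CPM, against 2.32 and 0.762 CPM (6.70 ± 0.82, adjusted p = 0.000821). These 5 calls held. TNNT3, the fast muscle troponin T, was lower, at 0 and 0.855 CPM in the abnormal fetuses, against 8.73 and 3.35 CPM in the NF fetuses (-3.73 ± 0.94, adjusted p = 0.0165, and 0.0963 and 0.0614 without abnormal 1 and NF 1). The contractile genes MYLPF (0.82 ± 0.90) and TNNC2 (1.88 ± 0.89) were not called. MYH7 also belongs to heart muscle, whose markers were higher too, and their part in this result was not tested. Over 22 tested members, 5 were higher and 7 lower, and the median of 0.33 changed sign to -0.19 on the TPM scale, -0.94 without abnormal 2 and -0.03 without NF 2. The higher count was 5, 3, 6 and 3 and the lower count 4, 5, 6 and 6 without abnormal 1, abnormal 2, NF 1 and NF 2.

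Cartilage and connective tissue were lower in the abnormal fetuses throughout the called members. Of 12 cartilage and bone genes, 8 were lower and none higher (median -3.11). COL11A2, a collagen of cartilage fibrils (chromosome 7, 25204496 to 25234880), had 8.74 and 5.99 CPM in the abnormal fetuses, 341 to 385 CPM in the normal clones, and 1190 and 1170 CPM in the NF fetuses (-7.32 ± 1.38, adjusted p = 0.00484). COL9A1, another cartilage collagen, had 58.1 and 56 CPM in the abnormal fetuses, against 723 and 583 CPM in the NF fetuses (-3.52 ± 0.48, adjusted p = 0.00125). COMP, a cartilage and tendon matrix protein, had 0.437 and 0.428 CPM, against 66.6 and 64.9 CPM (-7.16 ± 1.23, adjusted p = 0.00321). TNMD, a tendon protein on the X chromosome, had 0.874 and 1.28 CPM, against 140 and 88.1 CPM (-6.69 ± 0.44, adjusted p = 2.73e-05). All 4 calls held, and the lower count was 7, 5, 8 and 7 without abnormal 1, abnormal 2, NF 1 and NF 2.

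Fibroblast matrix genes were lower in 15 of 16 tested members, with none higher, against 14.5% of all genes lower (median -2.39). COL12A1, a collagen that links fibrils, had 299 and 159 CPM in the abnormal fetuses, against 5700 and 4260 CPM in the NF fetuses (-4.44 ± 0.64, adjusted p = 0.0016). OGN, the proteoglycan osteoglycin, had 14.4 and 2.14 CPM, against 423 and 388 CPM (-5.62 ± 0.59, adjusted p = 0.000406). COL3A1, the main fibrillar collagen of soft tissue measured here, had 9100 and 7680 CPM in the abnormal fetuses, 5910 to 6960 CPM in the normal clones, and 21700 and 22600 CPM in the NF fetuses (-1.40 ± 0.19, adjusted p = 0.00125). These 3 calls held, and the count stayed between 11 and 14 without any 1 library.

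Wound response genes, typical of cultured fibroblasts, were lower in 8 of 16 tested members, with none higher (median -2.81). PLAU, the secreted protease urokinase, had 7.43 and 21 CPM in the abnormal fetuses, 2.4 to 4.57 CPM in the normal clones, and 133 and 247 CPM in the NF fetuses (-3.74 ± 1.08, adjusted p = 0.025). The groups do not overlap, yet the call did not hold: its adjusted p was 0.144, 0.0771, 0.0362 and 0.096 without abnormal 1, abnormal 2, NF 1 and NF 2. The count of lower members was 2, 1, 5 and 3 in that order, and 14, with 1 higher, without day 35 abnormal 2.

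Limb and mesenchyme regulators were lower in 7 of 18 members and higher in 2 (median -0.81). TBX15, a limb and skin patterning factor, had 3.5 and 5.13 CPM in the abnormal fetuses, 170 to 188 CPM in the normal clones, and 126 and 110 CPM in the NF fetuses (-4.77 ± 0.36, adjusted p = 5.57e-05). TWIST2, a mesenchymal factor, had 19.2 and 16.7 CPM in the abnormal fetuses, against 197 and 142 CPM in the NF fetuses (-3.24 ± 0.46, adjusted p = 0.00138). MEOX1, a factor of the somites, was higher, at 39.3 and 42.3 CPM, against 7.51 and 12.5 CPM (2.03 ± 0.51, adjusted p = 0.0144, and 0.0525, 0.0658 and 0.0735 without abnormal 1, abnormal 2 and NF 1). The list's median turned to 0.52 without NF 1. The count of higher members was 0, 1, 1 and 2 without abnormal 1, abnormal 2, NF 1 and NF 2.

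Defence genes were lower in the abnormal fetuses, with a wide gap between the NF libraries. Of 20 interferon-induced genes, 12 were lower and none higher (median -2.20). MX1, an antiviral GTPase, had 5.68 and 5.99 CPM in the abnormal fetuses, against 34.3 CPM in NF 1 and 375 CPM in NF 2 (-5.12 ± 0.98, adjusted p = 0.00527). DDX58, the viral RNA sensor RIG-I, had 0.874 and 1.28 CPM in the abnormal fetuses, against 9.82 and 63.3 CPM in the NF fetuses (-5.04 ± 0.99, adjusted p = 0.00561). Both calls held, with MX1 at -2.56 without NF 2. Without that library the list had 4 lower members and a median of -0.96. The count was 6, 4 and 14 without abnormal 1, abnormal 2 and NF 1.

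Inflammatory genes had 6 lower and no higher members of 14 tested (median -2.56, 42.9% called, against 30.0% of all tested genes). CCL2, a monocyte chemokine, had 3.06 and 0 CPM in the abnormal fetuses, against 78.7 and 481 CPM in the NF fetuses (-7.50 ± 1.93, adjusted p = 0.0162). PTGS2, the inducible cyclooxygenase, had 5.68 and 5.56 CPM, against 60.4 and 90.4 CPM (-3.74 ± 0.82, adjusted p = 0.00861). Neither call held: the adjusted p of CCL2 was 0.0689, 0.103 and 0.0786 without abnormal 1, abnormal 2 and NF 2, and that of PTGS2 0.0557 and 0.0599 without abnormal 1 and abnormal 2. The count was 2, 0, 8 and 2 without abnormal 1, abnormal 2, NF 1 and NF 2.

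**Figure D4:**
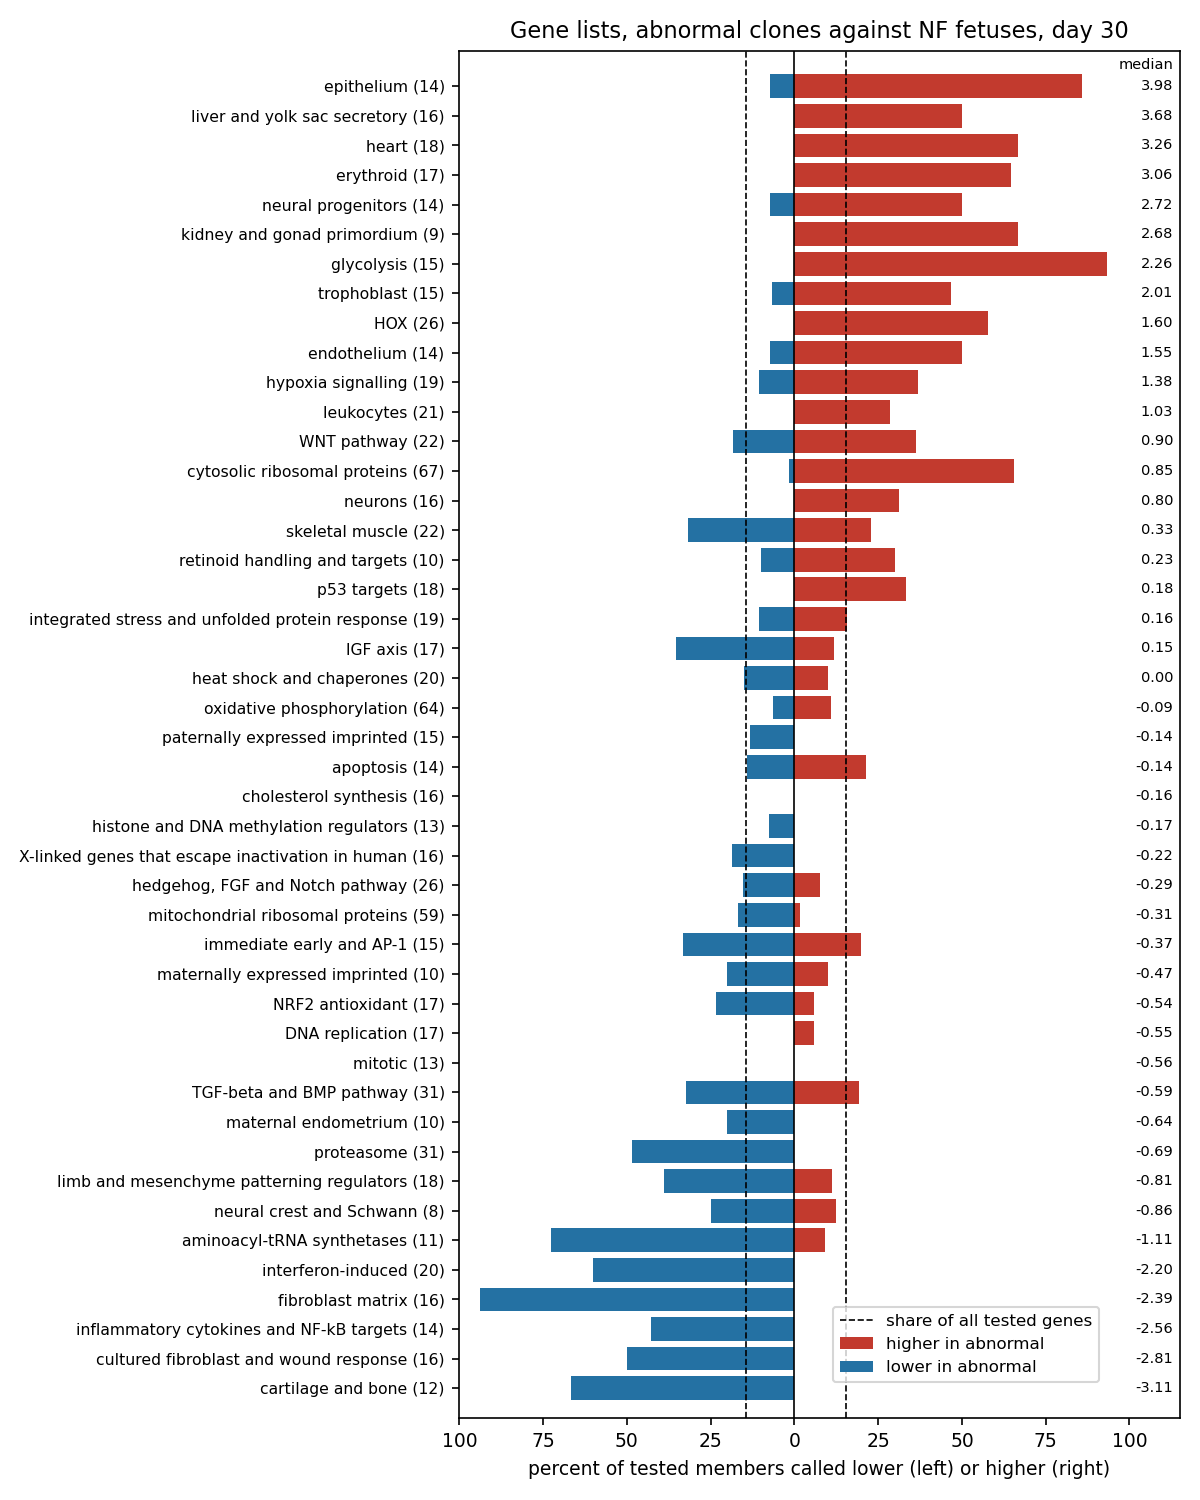
Share of the tested members of each gene list (number in brackets) called lower (left) or higher (right) in abnormal fetuses, with the median log2 difference at the right and the shares of all tested genes as dashed lines (14.5% and 15.5%). Lists are in order of their median, from the epithelial (3.98) to the cartilage and bone list (-3.11); glycolysis has the longest bar to the right and fibroblast matrix the longest to the left.

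Growth factor genes were called in both directions. IGF2, the paternally expressed fetal growth factor, had 361 and 286 CPM in the abnormal fetuses, 372 to 377 CPM in the normal clones, and 799 and 1090 CPM in the NF fetuses (-1.55 ± 0.27, adjusted p = 0.00373). DLK1, another paternally expressed imprinted gene, had 19.2 and 6.41 CPM in the abnormal fetuses, against 164 and 208 CPM in the NF fetuses (-3.86 ± 0.57, adjusted p = 0.0017). They were the 2 called of 15 paternally expressed imprinted genes (13.3%, against 30.0% of all tested genes). Of maternally expressed imprinted genes 30.0% were called, the same share as of all genes, and of IGF axis members 47.1%. IGF2R, the maternally expressed receptor that clears IGF2, had 151 and 319 CPM, against 726 and 954 CPM (-1.84 ± 0.30, adjusted p = 0.0027). IGFBP2, an IGF binding protein, was higher, at 2860 and 3230 CPM, against 370 and 189 CPM (3.45 ± 0.66, adjusted p = 0.0053). These 4 calls held. Over the IGF axis, 2 of 17 members were higher and 6 lower, and of 10 maternally expressed imprinted genes 1 was higher and 2 lower (1, 1, 5 and 1 called without abnormal 1, abnormal 2, NF 1 and NF 2). Without day 35 abnormal 2, 4 paternally expressed genes were lower, and 2 maternally expressed ones were higher and 4 lower.

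WNT genes were higher in 8 of 22 members and lower in 4 (median 0.90). Called shares were 54.5% of WNT, 51.6% of TGF-beta and BMP, and 23.1% of hedgehog, FGF and Notch genes, against 30.0% of all tested genes. WNT1, a signal of the midbrain and dorsal neural tube, had 44.6 and 19.7 CPM in the abnormal fetuses, against 0.546 and 0.152 CPM in the NF fetuses (6.39 ± 1.06, adjusted p = 0.0033). SFRP2, a secreted WNT modulator, had 220 and 97.1 CPM, against 1040 and 1070 CPM (-2.74 ± 0.39, adjusted p = 0.00138). Both calls held, and the higher count was 4, 6, 8 and 4 without abnormal 1, abnormal 2, NF 1 and NF 2. In the TGF-beta and BMP pathway, 6 of 31 members were higher and 10 lower. FST, the activin antagonist follistatin, had 4.81 and 10.3 CPM in the abnormal fetuses, against 86 and 96.5 CPM in the NF fetuses (-3.59 ± 0.47, adjusted p = 0.00103), and ID2, a BMP target, had 395 and 392 CPM, against 101 and 135 CPM (1.74 ± 0.26, adjusted p = 0.00173). Both held, while the higher count was 3, 5, 5 and 2 and the lower count 4, 4, 9 and 7 in the same order of libraries. SHH, the sonic hedgehog ligand, had 14.4 and 17.5 CPM, against 0.273 and 0.457 CPM (5.36 ± 0.60, adjusted p = 0.000506, holding), in a hedgehog, FGF and Notch list with 2 of 26 members higher and 4 lower (4, 3, 6 and 3 called in that order, and 5 higher and 7 lower without day 35 abnormal 2).

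HOX genes, which set position along the body, were higher in 15 of 26 tested members, with none lower (median 1.60, and 8 higher on the TPM scale). HOXB8 had 27.5 and 22.7 CPM in the abnormal fetuses, 13.7 to 16.8 CPM in the normal clones, and 1.09 and 1.52 CPM in the NF fetuses (4.24 ± 0.56, adjusted p = 0.00111). This call held, and the count was 9, 7, 11 and 8 without abnormal 1, abnormal 2, NF 1 and NF 2. HOXB8 was above NF in both kinds of clone. Called shares were 57.7% of HOX and 40.0% of retinoid genes, against 30.0% of all tested genes. Of 10 tested genes that handle retinoids or respond to them, 3 were higher and 1 lower, and 1, 1, 3 and 1 were higher in the same order of libraries left out.

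Against 30.0% of all tested genes, 26.3% were called in the stress and unfolded protein response, 33.3% of p53 targets, 29.4% of NRF2 genes, 35.7% of apoptosis genes and 53.3% of immediate early genes. ATF3, a stress-induced factor, had 360 and 239 CPM in the abnormal fetuses, 7.93 to 9.41 CPM in the normal clones, and 29.9 and 56.4 CPM in the NF fetuses (2.80 ± 0.48, adjusted p = 0.00327). HSP70.2, an inducible heat shock protein, had 1210 and 981 CPM in the abnormal fetuses, against 160 and 255 CPM in the NF fetuses (2.40 ± 0.33, adjusted p = 0.00125). BBC3, the p53-induced killer protein PUMA, had 52 and 62.9 CPM, against 7.78 and 14.3 CPM (2.38 ± 0.40, adjusted p = 0.0028). These 3 calls held. Their lists had 3 higher and 2 lower of 19 in the integrated stress and unfolded protein response, 2 higher and 3 lower of 20 chaperones, and 6 higher and none lower of 18 p53 targets (median 0.18, but -0.01 on the TPM scale and -0.13 without abnormal 2). The p53 count was 3, 1, 4 and 2 without abnormal 1, abnormal 2, NF 1 and NF 2. Of 15 immediate early and AP-1 genes, 3 were higher and 5 lower, of 14 apoptosis genes 3 were higher and 2 lower, and of 17 NRF2 antioxidant genes 1 was higher and 4 lower. In the order abnormal 1, abnormal 2, NF 1 and NF 2, leaving out a library gave 3, 1, 4 and 3 called genes in the stress response list, 2, 2, 3 and 2 chaperones, 1, 3, 5 and 1 immediate early genes, 3, 2, 4 and 2 apoptosis genes and 0, 0, 2 and 1 NRF2 genes. Without day 35 abnormal 2, 1 NRF2 gene was higher and 10 lower, 5 stress response genes were higher and 4 lower, and 3 chaperones were higher and 6 lower.

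Ribosomal proteins and proteasome subunits were called in opposite directions. Cytosolic ribosomal proteins were higher in 44 of 67 tested members and lower in 1, with a median of 0.85. RPL5 had 3730 and 3750 CPM in the abnormal fetuses, against 1720 and 1430 CPM in the NF fetuses (1.25 ± 0.30, adjusted p = 0.013, but 0.057, 0.0617 and 0.0874 without abnormal 1, abnormal 2 and NF 2). The count was 6, 4, 27 and 2 without abnormal 1, abnormal 2, NF 1 and NF 2, with medians of 0.7 to 1.05, and 26 on the TPM scale. Proteasome subunits were lower in 15 of 31 members, with none higher (median -0.69). PSMD14, a deubiquitinating subunit, had 66.4 and 51.3 CPM in the abnormal fetuses, against 157 and 162 CPM in the NF fetuses (-1.44 ± 0.21, adjusted p = 0.00174, holding), and the count was 5, 3, 9 and 7. Of 11 aminoacyl-tRNA synthetases, 8 were lower and 1 higher (median -1.11). YARS, which charges tyrosine tRNA, had 110 and 106 CPM, against 288 and 371 CPM (-1.61 ± 0.26, adjusted p = 0.00247, holding), and the lower count was 2, 2, 7 and 2. In the mitochondrion, 1 of 59 ribosomal proteins was higher and 10 lower, and 7 of 64 respiratory chain genes were higher and 4 lower. Their called shares were 18.6% and 17.2%, against 30.0% of all tested genes. Without abnormal 1, abnormal 2, NF 1 and NF 2, the called genes numbered 0, 0, 6 and 0 of these ribosomal proteins and 5, 2, 8 and 3 of the respiratory chain genes. Without day 35 abnormal 2, 1 of these ribosomal proteins was higher and 20 lower, and 9 respiratory chain genes were higher and 13 lower.

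Mitotic and cholesterol synthesis genes had no call. Of DNA replication genes 5.88% and of methylation regulators 7.69% were called, against 30.0% of all tested genes. Of 13 mitotic genes (median -0.56) and 16 cholesterol synthesis genes (median -0.16), edgeR and DESeq2 called 0, and 0 had an unadjusted p under 0.05 in edgeR. Fits without some libraries made calls: 6 mitotic genes were lower in the fit of the 7 day 30 libraries and also without day 35 abnormal 2, and 2 cholesterol genes were higher without NF 1. Of 17 DNA replication genes 1 was higher, with 0, 0, 2 and 0 called without abnormal 1, abnormal 2, NF 1 and NF 2. The calls were mostly lower in other fits, with 1 higher and 7 lower in the 7 day 30 libraries, and 1 higher and 9 lower without day 35 abnormal 2 (median -0.55). Among 13 regulators of histone and DNA methylation, EED, a Polycomb subunit, was the called one, at 18.8 and 15 CPM in the abnormal fetuses, against 37.7 and 53.2 CPM in the NF fetuses (-1.43 ± 0.36, adjusted p = 0.015, and 0.053, 0.0934 and 0.0805 without abnormal 1, abnormal 2 and NF 2). Without day 35 abnormal 2, 2 of these regulators were higher and 4 lower.

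The X chromosome, named in the title of the series, was compared with the autosomes. Of 421 X-linked genes, 51 were higher and 61 lower (26.6% called), against 30.2% of 9408 autosomal genes called. Their median log2 difference exceeded the autosomal one by 0.09. The ratio of median X-linked to median autosomal TPM was 0.8 and 0.848 in the abnormal fetuses, against 0.796 and 0.728 in the NF fetuses (exact permutation test, two-sided p = 0.333, the smallest that 2 against 2 allows). In the normal clones the ratio was higher, at 0.906 to 0.932. Of 16 genes that escape X inactivation in human, 3 were lower and none higher, with 1, 0, 2 and 2 lower without abnormal 1, abnormal 2, NF 1 and NF 2, and 1 higher and 5 lower without day 35 abnormal 2. Of these 16 genes, 18.8% were called, against 30.0% of all tested genes. The mixed sex of the NF pair cannot be told apart from its other differences.

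The normal clones were set beside both groups. The comparison of normal clones with NF fetuses uses the same NF libraries, and that of abnormal with normal clones the same abnormal libraries, so the values are given side by side without a test between them. Abnormal clones differed from normal clones in 1525 genes (15.4%, with 8.93% of all tested genes higher and 6.46% lower), and normal clones from NF fetuses in 2906 genes (29.3%). For glycolysis, the median log2 difference was 2.05 for abnormal minus normal clones and 0.25 for normal clones minus NF. The heart list had 2.02 and 2.14, and the epithelial list 3.0 and 0.94, in that order. Erythroid genes had -0.71 and 4.13, and HOX genes 0.23 and 2.31. Interferon-induced genes had 1.15 and -3.09, and wound response genes 1.51 and -3.27. Cartilage genes had -1.06 and -0.75, and fibroblast matrix genes -0.64 and -1.77.

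Whether the day 30 difference was the same 5 days later was asked with the day 35 libraries, 2 abnormal and 2 NF, which share no library with day 30. At day 35 itself, abnormal and NF fetuses differed in 2301 genes (23.2%), 13.0% of all tested genes higher and 10.2% lower. The day 35 abnormal fetuses are labelled male, but their Y-linked sum was 4.6 and 2.7 CPM, against 996 and 987 CPM in the NF fetuses of that day. At day 30 it was 1220 and 620 CPM in abnormal fetuses, against 0.273 and 1070 CPM in NF fetuses. A change with age therefore cannot be told apart from a difference in sex or donor cells between the libraries of both days. The change in the difference (day 35 minus day 30) was called for 76 of 9911 genes (0.767%), 23 higher (0.232%) and 53 lower (0.535%), and 1340 genes had an unadjusted p under 0.05. Of 14 endothelial genes, 7 were called, all lower. VWF had 3.07 and 2.7 CPM in abnormal fetuses at day 35, against 7.35 and 6.29 CPM in NF fetuses, where at day 30 it was above NF (change in the log2 difference -4.55 ± 0.38, adjusted p = 0.000793). The 2.7 CPM in day 35 abnormal 2 is 1 count. PECAM1, a vessel adhesion molecule, had 29.2 and 13.5 CPM at day 35 in abnormal fetuses, against 175 and 203 CPM in NF fetuses (change -4.59 ± 0.78, adjusted p = 0.0246). The other 5 were ESAM, TEK, CLDN5, SOX7 and NOS3. Their number was 8 without day 35 abnormal 2, the shallowest library and the one closer to NF libraries, and 9 without day 35 abnormal 1. It was 5, 1, 7 and 11 without day 30 abnormal 1, abnormal 2, NF 1 and NF 2, and 2 and 1 without day 35 NF 1 and NF 2, with a median change of -3.43 to -5.22 throughout.

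TNMD and TBX15 had a smaller deficit at day 35. TNMD had 25.7 and 40.5 CPM in abnormal fetuses, against 64.1 and 76.2 CPM in NF fetuses (change 5.49 ± 0.57, adjusted p = 0.0015). TBX15 had 28 and 18.9 CPM, against 114 and 124 CPM (change 2.53 ± 0.48, adjusted p = 0.0369). SIX2, a regulator of mesenchyme and kidney, had 186 and 89 CPM at day 35 in abnormal fetuses, against 69.3 and 73.4 CPM in NF fetuses, and 16.6 and 12.8 CPM at day 30, against 96.3 and 56.4 CPM (change 3.38 ± 0.48, adjusted p = 0.0107). SHH was the reverse, at 0.767 and 0 CPM in abnormal fetuses at day 35, against 1.54 and 0.524 CPM (change -6.01 ± 0.99, adjusted p = 0.0217). In day 35 abnormal 2, 1 count equals 2.7 CPM, so its 0 does not separate it from the NF level. The calls of SIX2, SHH and PECAM1 were lost without 1 or more of the 8 libraries (highest adjusted p 0.0643, 0.102 and 0.0757), and that of TBX15 reached 0.167, while VWF kept its call throughout. All 5 calls stayed without day 35 abnormal 2. Of glycolytic, heart and epithelial genes, edgeR called 0 in this test, with 0, 6 and 1 at an unadjusted p under 0.05 and 0, 1 and 1 called by DESeq2, which does not show that their differences were equal at the 2 ages. The number of all genes called was 20 without day 35 NF 1 and 24 without day 35 NF 2, 636 without day 35 abnormal 2 and 2000 without day 35 abnormal 1.

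**Figure D5:**
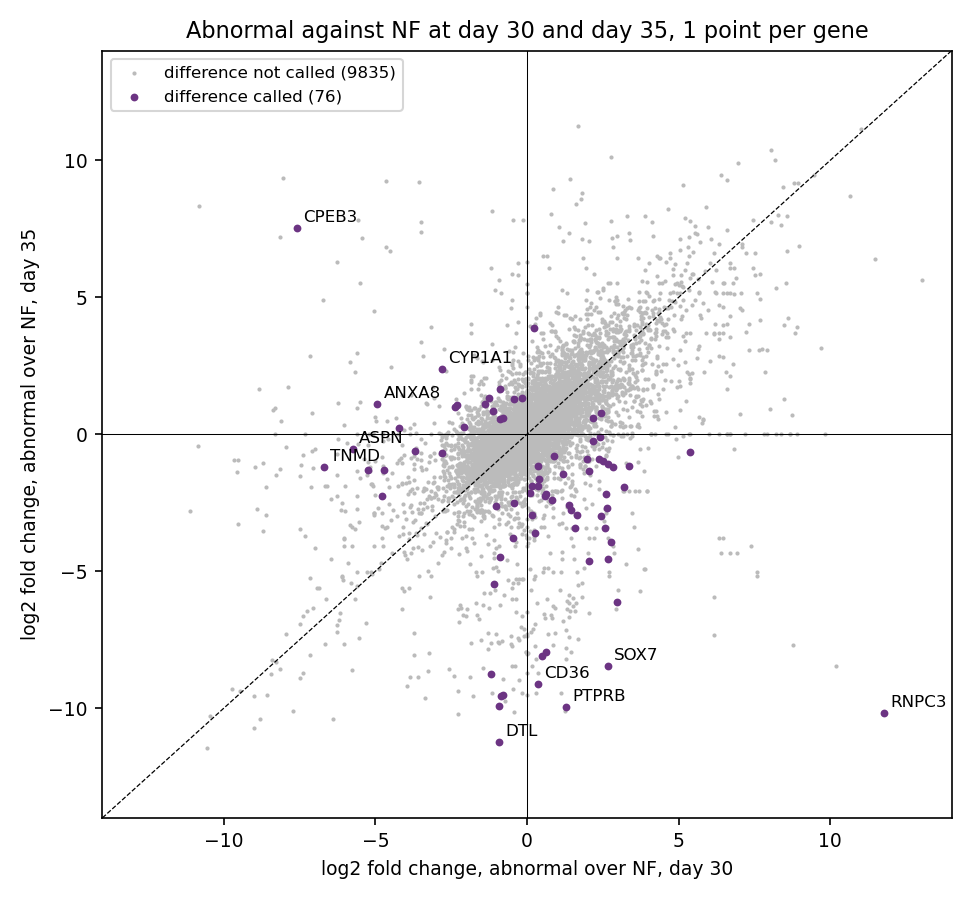
Log2 difference between abnormal and NF fetuses at day 35 (y axis) against day 30 (x axis), 1 point per gene, with the 76 genes whose difference changed in purple and equality as a dashed line. Most purple points lie below the line, among them SOX7 and PTPRB, which were above NF at day 30 and undetected in abnormal fetuses at day 35.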

How the data were processed

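Total RNA of fetuses was sequenced. Reads were quantified with RSEM 1.2.4 on Sscrofa11.1 (susScr11), per the submitters' processing notes; which aligner and which read filters were used is not given in the sources used here. The deposited tables list 65927 transcript records with an expected count and a TPM value each, per the file headers. Records were matched to gene symbols by RefSeq accession without version (25305 records, 38.4%, 14389 genes, holding 66.0% to 69.0% of a fetus library's counts), and expected counts were summed and rounded. Deposited totals were 3463757 and 3574832 expected counts in abnormal and 11535824 and 10206229 in NF libraries. A floor of 3 counts over a group equals 0.648 CPM (abnormal) and 0.216 CPM (NF), for counting error only.

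All 14 fetus libraries were fitted as 6 group means in edgeR 4.0.16 (R 4.3.3): filterByExpr, TMM, quasi-likelihood F-test, Benjamini-Hochberg at 0.05. The biological coefficient of variation was 0.29. CPM use TMM-scaled library sizes. On simulated counts, 75 of 99 genes changed 4-fold and 83 of 97 changed 8-fold were recovered, with 7 false calls over 9665 genes. The simulation gave each gene the spread typical of its expression level and held no deviating library. Its false calls are therefore no measure of those in the real libraries. Alternatives were RLE scaling, other filters, DESeq2 1.42.0, limma 3.58.1 on log2(TPM + 1), fewer libraries, versioned matching and a replicate block. The members and the 45 lists were chosen with earlier results of these data known. The text names genes among the 15 largest per direction whose call held and whose groups did not overlap. It also names up to 4 per list and direction, both kinds with average log2 CPM of at least 1. The rule further covers the 5 largest day changes per direction, and defining markers and Y-linked genes, of which the text names only some. PKM, GAPDH, PFKM, VEGFA, ADM, TNNI3, ACTC1, CLDN7, TNNT3, TEK and ESAM fall outside this rule, and they and the day 35 values of VWF, PECAM1, TBX15, SIX2 and SHH were chosen after their values were seen. The XIST gene was not analysed here. Some named members of the lists are not reported here.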

Additional observations from a re-analysis of the deposited data

Results flagged for a closer look

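Each of these 10 genes had a difference between abnormal and NF fetuses that was not the same at day 35 as at day 30, by a test of that change in edgeR (log2, day 35 minus day 30). 5 changed upward. CPEB3 changed by 15.10 (adjusted p = 0.0259), from counts in a single abnormal library of day 35, at 6.91 and 0 CPM, against none in NF fetuses. At day 30 it had none in abnormal fetuses, against 5.73 and 4.57 CPM in NF fetuses. ANXA8, an annexin, changed by 6.03 (adjusted p = 0.0217), with 97.8 and 243 CPM in abnormal fetuses at day 35, against 90 and 62.4 CPM in NF fetuses. TNMD changed by 5.49 (adjusted p = 0.0015), ASPN, the matrix protein asporin, by 5.19 (adjusted p = 0.0217) and CYP1A1, a detoxifying enzyme, by 5.16 (adjusted p = 0.0369).

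5 changed downward, and all of these were undetected in both abnormal fetuses at day 35. RNPC3 changed by -21.98 (adjusted p = 0.0479), which, like the other fitted changes of genes at 0, depends on the prior count. It had 100 and 91.5 CPM in abnormal fetuses at day 30, against none in NF fetuses, and at day 35 none in abnormal fetuses, against 34 and 29.4 CPM in NF fetuses (at least 31.5-fold lower). PTPRB, an endothelial phosphatase, changed by -11.27 (adjusted p = 0.00354) and was at least 26.8-fold lower at day 35. SOX7, an endothelial transcription factor, changed by -11.12 (adjusted p = 0.0369, at least 9.46-fold lower). DTL, a ubiquitin ligase adaptor of the replication cycle, changed by -10.32 (adjusted p = 0.000793, at least 64.9-fold lower), and CD36, a fatty acid receptor, by -9.48 (adjusted p = 0.0234, at least 15-fold lower). TNMD, PTPRB and DTL kept their call without each of the 8 libraries. The others lost it without at least 1, with highest adjusted p of 1.0 for CPEB3 (without day 35 abnormal 1), 0.143 for CYP1A1 (without day 30 abnormal 1), 0.123 for RNPC3 (without day 30 NF 1), 0.104, 0.0886 and 0.0856 for SOX7, ANXA8 and ASPN (without day 35 NF 2) and 0.0674 for CD36 (without day 35 NF 1). All 10 kept their call without day 35 abnormal 2. With records matched by version, CD36 rests on 1 record in place of 5, of 11 listed, and changed by -0.98 (adjusted p = 1.0), and ASPN had an adjusted p of 0.0703. RNPC3, PTPRB, SOX7, DTL and CPEB3 had no value under that matching.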

How the results depend on the processing

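The abnormal against NF count of 2974 ranged from 1112 to 2217 without 1 library of day 30, was 4651 without day 35 abnormal 2 and 736 of 2964 genes with versioned matching, and stayed within 1.5 times under the other alternatives, RLE scaling (2872, 61.5% higher), DESeq2 (3454, 59.9% higher) and limma on TPM (2830) among them. The count of 76 changes between days ranged from 20 to 2000 without 1 library, and was 636 without day 35 abnormal 2, 384 with DESeq2 and 33 with versioned matching. Same-numbered libraries did not deviate together beyond r = 0.00252 at day 30 and 0.167 at day 35, with 2 pairs a day and no label that ties them, so the numbers were not taken to pair. A replicate block gave 2331 calls and 36 changes between days; the adjusted p of the change was then 0.0536 for PECAM1, 0.0832 for TBX15, 0.0598 for SHH, 0.0568 for CD36, 0.0958 for CPEB3, 0.123 for CYP1A1 and 0.134 for RNPC3. X-linked minus autosomal medians differed by 0.09, with 0.05 (without abnormal 2) to 0.11 (without NF 1) when 1 day 30 library was left out, and 0.12 with versioned matching. NEFL (-0.09) ranged from -0.76 without NF 2 to 1.16 without NF 1, and SLC4A1 from 0.0 without abnormal 2 to 6.88 without abnormal 1. Of 220 called genes among the 237 named, 101 stayed called in every alternative. At the depth of the abnormal libraries, no count in either allows up to 0.648 CPM. With 2 libraries a group, calls lean on the spread borrowed from all 14 fetus libraries. The causes were not tested.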
